A study of Mus musculus with 167 samples.

Results

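The CC060 tumours are 3 mesotheliomas from 3 mice, chosen by their strain label out of 167 tumours of 119 mice and 35 strains. They were set against 72 mice, with 102 tumour libraries, of the strains Boon, CC035, CC040, CC044, CC046, CC053, CC059, CIS, KAV, LAT, LOX, MEE, Rogan, TAS, VUX and YID. All mice were first-generation crosses of a Collaborative Cross male, from an inbred line whose genome is a mosaic of founder strains, with a MexTAg female. In MexTAg mice the mesothelin promoter drives the large T antigen of SV40, so this oncogene is made in mesothelial cells in CC060 and comparison mice alike. Every mouse received 2 intraperitoneal injections of 3 mg crocidolite asbestos and no other treatment, and neither age nor sex is given in the labels. The CC060 mice, named B1, G2 and H2, were all labelled above median survival, and 49 of the comparison mice were above and 23 below. RNA came from 1 tumour of each CC060 mouse, for H2 the tumour numbered 2, and from 1 to 3 tumours of each comparison mouse, whose counts were summed.

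Mesothelioma arises from the cell layer that lines the pleura and peritoneum. In the MexTAg model T antigen binds the p53 and RB proteins, and asbestos exposure brings on the tumours. Cdkn2a, which encodes the inhibitors p16 and p19Arf, is among the genes most often lost in mesothelioma, and the type I interferon genes lie beside it in mice and people.

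The CC060 libraries held 23799592 counts for B1, 25008842 for G2 and 22466371 for H2, and the comparison mice held 11138491 to 91935422. Over 300 genes that mark strains, picked without CC060, the CC060 tumours correlated with each other at 0.934 to 0.947 and with any comparison mouse at no more than 0.757, so the 3 libraries stand together as their label says. No CC060 library had more than 1% of its counts in a marker list of another tissue. The mesothelial surface gene Msln was at 12.5, 17.01 and 10.6 CPM (counts scaled to the size of the library) in CC060 mice B1, G2 and H2, against a median of 18.9 CPM in comparison mice. The keratin gene Krt18 was at 525, 180 and 247 CPM in B1, G2 and H2, against a median of 50.9 CPM in comparison mice. The calretinin gene Calb2, a diagnostic mark of human mesothelioma, was close to 0 in both groups, with 0, 0.111 and 0.0868 CPM in CC060 mice against a median of 0.0394 CPM. These are whole tumours, in which fewer cells of a type and less RNA per cell cannot be told apart.

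Most genes that separated CC060 from the other strains did so through 1 of the 3 tumours. In edgeR's quasi-likelihood test with Benjamini-Hochberg adjustment at 0.05, 58 of 20080 genes were called (0.289%), 55 higher (0.274%) and 3 lower (0.0149%) in CC060. At an unadjusted p of 0.05, 1917 genes passed. Of the 58 called genes, 23 lay in the last stretch of chromosome 6, which holds 47 tested genes, and all 23 were highest in mouse H2. In those 23 genes the median share of H2 in the CPM added over the 3 CC060 mice was 94.8%. The other 35 called genes were highest in B1 for 11, in G2 for 10 and in H2 for 14. Without H2 the test called 24 genes higher and 0 lower, 15 of the 24 among the original calls and none in the chromosome 6 stretch. With B1 left out 49 genes were called higher, with G2 left out 58, and in either fit 0 lower.

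The distal end of chromosome 6 was high in tumour H2 as a block. The stretch runs from Cmas to Bicd1, chr6:142756686-149563329 in GRCm38. Its start was set after the values were seen, at the gene where H2 first rose. The counts inside and just before it therefore describe the block and do not test it. Among its 32 genes with a median of at least 5 CPM in comparison mice, H2 was at least 4-fold above that median in 28 and at least 2-fold in 30, on the scale of CPM + 1. Over all 11304 genes of that level, H2 was at least 4-fold above the median in 1.27%. The median log2 ratio over the 32 genes was 3.40 in H2, 0.32 in B1 and 0.22 in G2. B1 was at least 2-fold above in 1 of the 32 and G2 in 0, where over all genes of that level the shares at 2-fold were 5.84% for B1, 5.06% for G2 and 5.63% for H2. Of the 9 genes from Plekha5 to Abcc9, just before Cmas, H2 was at least 2-fold above in none.

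Etnk1, an ethanolamine kinase of phospholipid synthesis, was among the genes at the highest level in the stretch. It was at 257 CPM in B1, 186 CPM in G2 and 8432 CPM in H2, against a lowest of 43.5, a median of 146.5 and a highest of 2661 CPM in comparison mice. B1 lay above the 75th percentile of 190.1 CPM and G2 just below it, both within the range, and H2 alone lay beyond every comparison mouse, at 57.6 times their median. The log2 fold change of CC060 over comparison mice was 3.95 ± 0.42 (SE, edgeR adjusted p = 5.58e-11, n = 3 and 72). Without H2 it was 0.18 (edgeR adjusted p = 0.931).

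**Figure D1:**
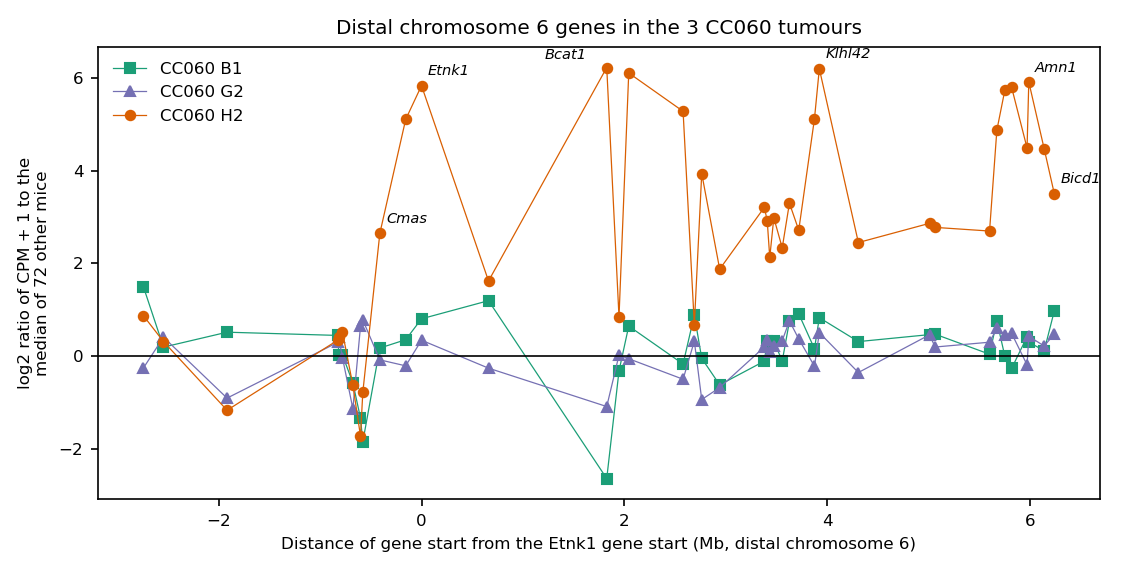
Log2 ratio of each CC060 tumour (3 colours) to the median of 72 comparison mice, on CPM + 1, for the genes reported here with a median of at least 5 CPM, against distance from Etnk1 in megabases. The H2 points leave 0 at Cmas and stay well above it to the end of the chromosome apart from a few genes, with a median of 3.40 in the stretch, while B1, which is lowest at Bcat1, and G2 vary around 0.

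Other genes of the stretch were high in H2 to a like degree. Bcat1, which transfers amino groups from branched-chain amino acids, was at 7.43, 23.7 and 3930 CPM in B1, G2 and H2, against a comparison median of 51.5 and highest of 3432 CPM. B1 and G2 were thus below the comparison median for Bcat1 while H2 was above every comparison mouse. Klhl42, an adaptor of a cullin ubiquitin ligase, was at 64.3, 51.2 and 2701 CPM in B1, G2 and H2, against a comparison highest of 94.0 CPM (log2 fold change 4.70 ± 0.29 SE, edgeR adjusted p = 3.94e-22). Amn1 had the lowest p of all genes, with 16.8, 18.4 and 870 CPM in B1, G2 and H2 against a comparison highest of 36.2 CPM (log2 fold change 4.39 ± 0.25 SE, edgeR adjusted p = 8.28e-24). Pthlh, the hormone behind the high blood calcium of some cancers, was at 7.31, 6.198 and 936 CPM, against a comparison highest of 106 CPM (log2 fold change 5.08, edgeR adjusted p = 5.81e-10).

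In some genes of the stretch the excess of H2 was smaller. Ergic2, a protein of the compartment between endoplasmic reticulum and Golgi, was at 104, 104 and 553 CPM in B1, G2 and H2, against a comparison highest of 149.1 CPM (log2 fold change 1.67, edgeR adjusted p = 3.61e-09). Bicd1, an adaptor of the motor dynein, was at 27.1, 18.9 and 160.5 CPM in B1, G2 and H2, against a comparison median of 13.3 CPM (edgeR adjusted p = 0.0145). Arntl2, a clock transcription factor, was at 24.2 CPM in B1 and 24.3 CPM in G2, and H2 held 75.1% of its CPM added over the 3 CC060 mice, against a comparison median of 13.9 CPM (edgeR adjusted p = 0.00996). Ergic2, Arntl2 and Bicd1 were above the 75th percentile of comparison mice in B1 and G2 too. A few genes inside the stretch did not share the excess: the transcription factor Bhlhe41 was at 40.5, 27.1 and 34.8 CPM in B1, G2 and H2, against a comparison median of 21.4 CPM, and Lrmp at 11.8, 15.2 and 27.7 CPM against 14.97 CPM. DNA copy number was not analysed here.

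One comparison mouse, CC044-D3, had 10 or more of the 32 genes at least 4-fold above the median. It had 14, and 11 of them were also among the 28 of H2. The genes shared lay from C2cd5 to Med21, among them Etnk1, Bcat1 and Rassf8, with 2661 CPM of Etnk1 in CC044-D3. At Med21 CC044-D3 was higher than H2, with 478 against 192.1 CPM. Beyond Med21, Klhl42, at 31.4 CPM, and Amn1, at 12.5 CPM, were just below the comparison median in CC044-D3. The tumours of CC044-D3 differed, with 4975 CPM of Etnk1 and 6337 CPM of Bcat1 in tumour 1. Tumour 2 had 150.5 CPM of Etnk1, near the comparison median of 146.5 CPM, and 277.4 CPM of Bcat1, above the comparison median of 51.5 CPM. The CPM of these single tumours use the plain total of each library, and the comparison medians use a scaled one. H2 itself was sampled in 1 tumour only.

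Tumour G2 had its own stretches of high genes on chromosome 10. Of 26 genes around Sgpl1, 9 were at least 2-fold above the comparison median in G2, against 1 in B1 and 1 in H2. Over all genes of that level the share in G2 was 5.06%. The region was chosen after the values were seen, where G2 was high, so these counts describe it and test nothing. The 9 genes lay from Chst3 to Ppa1, chr10:60181532-61674168. Chst3 lay apart, as the next genes of that level, Psap and Vsir, had log2 ratios of -0.68 and 0.07 in G2. The unbroken run went from Slc29a3 to Ppa1. Sgpl1, the lyase that breaks down sphingosine 1-phosphate, was at 193, 867 and 237 CPM in B1, G2 and H2, against a comparison median of 165 and highest of 327 CPM. It was the 1 gene of the 9 that was called (log2 fold change 1.33 ± 0.25 SE, edgeR adjusted p = 0.000492). Eif4ebp2, a repressor of cap-dependent translation, was at 105, 836 and 130 CPM in B1, G2 and H2, against a comparison highest of 401 CPM (edgeR adjusted p = 0.238). Pald1 was at 23.4, 174 and 25.04 CPM, against a comparison highest of 82.3 CPM (edgeR adjusted p = 0.279). In all 3 genes G2 alone stood above every comparison mouse. Without G2 the log2 fold change of Sgpl1 was 0.33 (edgeR adjusted p = 0.72).

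**Figure D2:**
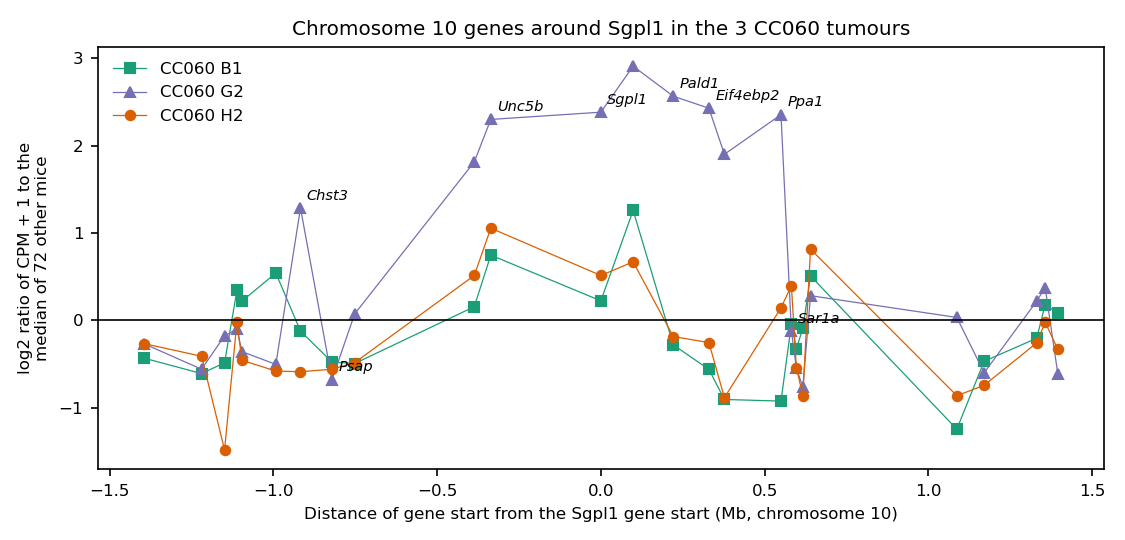
Log2 ratio of each CC060 tumour (3 colours) to the median of 72 comparison mice, on CPM + 1, against distance from Sgpl1 in megabases along chromosome 10. G2 is raised from about Slc29a3 to Ppa1 and returns to 0 at Sar1a, while B1 and H2 vary around 0 over the same genes.

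Trmt11, a tRNA methyltransferase elsewhere on chromosome 10, was at 12.99, 40.4 and 11.6 CPM in B1, G2 and H2, against a comparison median of 8.85 and highest of 16.6 CPM (log2 fold change 1.22, edgeR adjusted p = 0.00595). Without G2 it was 0.41 (edgeR adjusted p = 0.716). Its neighbours Cenpw, a kinetochore protein, and Ncoa7 were chosen for a look after their values were seen. Cenpw was at 9.66, 23.7 and 6.07 CPM in B1, G2 and H2, against a comparison highest of 15.9 CPM, and Ncoa7 at 23.99, 74.04 and 34.8 CPM against 63.1 CPM. For all 3 of these neighbours G2 was above every comparison mouse, and Cenpw and Ncoa7 were not called (edgeR adjusted p = 0.494 for each).

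Tumour B1 led called genes of several roles. Genes that 1 mouse leads were common in these data. Among genes tested, B1 was highest of the 75 mice, at 1 CPM or more and at least 2-fold above the next, in 6. G2 was so in 7 and H2 in 34, against a median of 18.5 and a range of 2 to 938 in comparison mice. B1 and G2 thus led fewer genes than the median comparison mouse. P2ry1, a receptor for ADP, was at 117, 5.35 and 3.04 CPM in B1, G2 and H2, against a comparison median of 1.27 and highest of 31.96 CPM (log2 fold change 4.27 ± 0.64 SE, edgeR adjusted p = 3.55e-06). Itga8, an integrin chain of mesenchymal cells, was at 411, 3.21 and 8.72 CPM, against a comparison median of 4.20 and highest of 150 CPM (log2 fold change 3.48, edgeR adjusted p = 0.0145). B1 was above every comparison mouse for both, and G2 and H2 were within the range. Without B1 the log2 fold change was 0.96 for P2ry1 (edgeR adjusted p = 0.737) and -1.09 for Itga8 (edgeR adjusted p = 0.785). Mcpt1 and Mcpt2, proteases of mucosal mast cells, were at 153.1 and 216 CPM in B1, at 0.517 and 3.17 CPM in G2 and at 19.4 and 35.6 CPM in H2. The highest comparison mouse had 25.2 CPM of Mcpt1 and 51.3 CPM of Mcpt2 (edgeR adjusted p = 1.8e-05 and 0.000193). Their log2 fold changes were 5.83 for Mcpt1 and 5.07 for Mcpt2, and without B1 3.30 and 2.94 (edgeR adjusted p = 0.7 for each). Both are near copies within a protease cluster, so the counting could split reads between them. Of 10 tested mast cell protease genes, a family chosen after the values were seen, these were the 2 called higher, where 0.274% of all genes were. B1 was above the 75th percentile of comparison mice in 9 of the 10, G2 in 2 and H2 in 3. Over all genes the shares above it were 24.5% for B1, 24% for G2 and 24.7% for H2. The general mast cell gene Cpa3 was at 64.04, 2.51 and 8.98 CPM in B1, G2 and H2 and did not pass (edgeR adjusted p = 0.718).

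**Figure D3:**
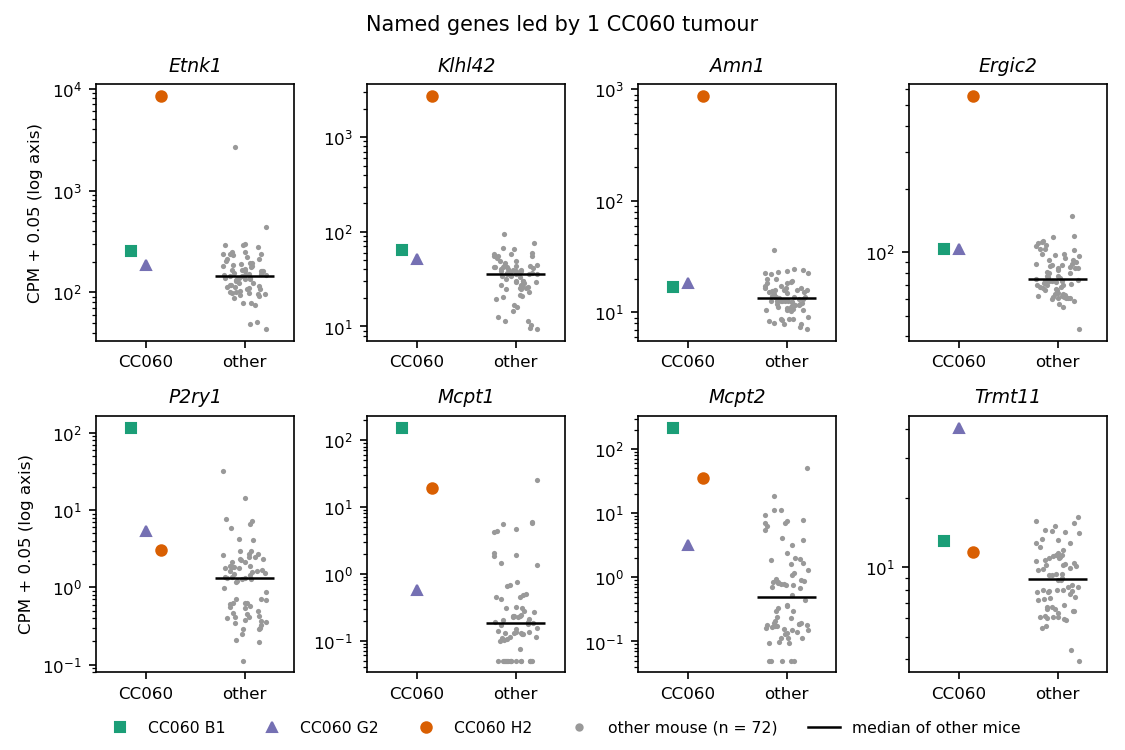
CPM + 0.05 on a log axis for 8 called genes in the 3 CC060 tumours (left) and the 72 comparison mice (right, grey, with their median as a line). H2 leads Etnk1, Klhl42, Amn1 and Ergic2, B1 leads P2ry1, Mcpt1 and Mcpt2, and G2 leads Trmt11.

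Genes below the filter on low counts added a second feature of B1. The fit without that filter called 119 of 31581 genes higher (0.377%), 64 of them below the filter, and 27 of the 64 reached 1 CPM in a CC060 mouse: 18 led by B1, 4 by G2 and 5 by H2. These genes were looked at after their values were seen. All 14 interferon alpha genes of the table, Ifna1 to Ifna16 and Ifnab on chromosome 4, were higher in B1 than in every other mouse. Their summed level was 122 CPM in B1, 0.295 CPM in G2 and 0.0434 CPM in H2, against a median of 0.0441 and a highest of 2.51 CPM in comparison mice. Ifna6 had 724, 3 and 0 counts and Ifnab 455, 0 and 0 counts in B1, G2 and H2. Ifnb1 and Ifne, which lie at the ends of the run, had 4 and 8 counts in B1, and the highest comparison mice had more, at 0.778 CPM of Ifnb1 and 1.63 CPM of Ifne against 0.162 and 0.325 CPM in B1. The Ifna genes are near copies, so the split between them is uncertain.

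**Figure D4:**
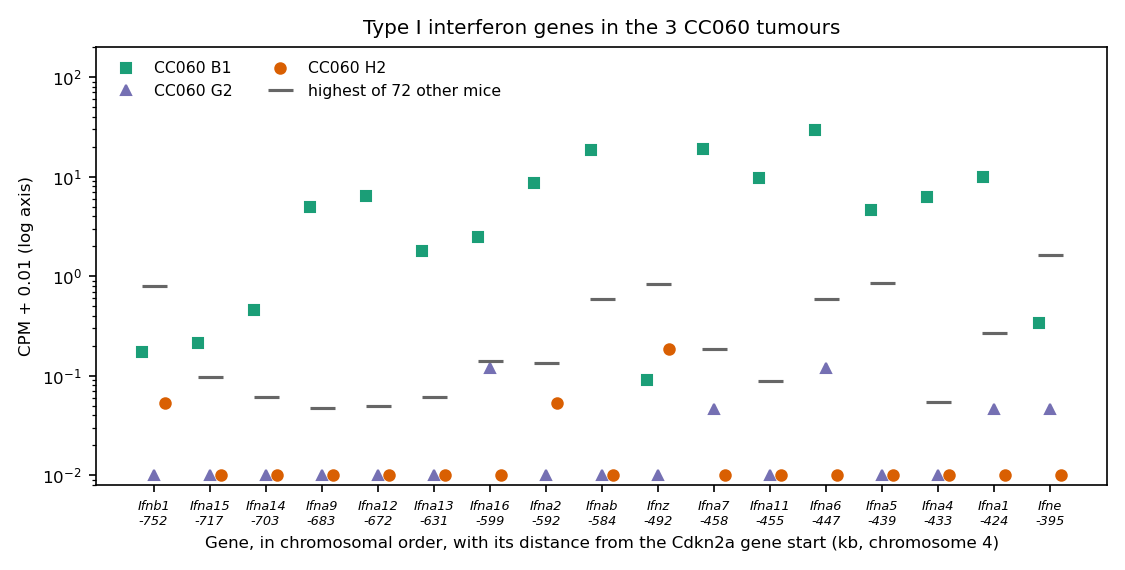
CPM + 0.01 on a log axis for the type I interferon genes of chromosome 4 in chromosomal order, with distance from Cdkn2a in kilobases. B1 lies above the highest of 72 comparison mice (dash) for all 14 Ifna genes and below it for Ifnb1, Ifnz and Ifne, and G2 and H2 are at or near 0.

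Genes that interferon induces were high in B1 as well, and in H2, whose Ifna genes held 1 count in all. Of a list of 20 type I interferon response genes, B1 was above the 75th percentile of comparison mice in 20, G2 in 2 and H2 in 15, where over all genes the shares were 24.5% for B1, 24% for G2 and 24.7% for H2. No gene of the list was called in edgeR against all comparison mice. Mx2, a GTPase that restricts viruses, was at 162, 15.9 and 110 CPM in B1, G2 and H2, against a comparison median of 4.18 and highest of 177 CPM (log2 fold change 2.71, edgeR adjusted p = 0.302). Ifi44 was at 145.8, 12.99 and 81.9 CPM, against a comparison median of 8.87 and highest of 110 CPM (log2 fold change 2.18, edgeR adjusted p = 0.277). Mx2 was called by limma-voom (log2 fold change 3.65, adjusted p = 0.000168). With strain as a factor and comparison strains weighted equally, edgeR called Mx2 (log2 fold change 3.82, adjusted p = 3.25e-09). The same fit called Ifi44 (2.46, adjusted p = 0.00682) and Mx1 (2.25, adjusted p = 0.0131). Its p-values measure the spread between mice within strains and leave out the spread between strains. Against CC035 and KAV only, the log2 fold change was 0.50 for Mx2 and 1.10 for Ifi44, and neither was called (edgeR adjusted p = 0.904 and 0.62). The list's score, the mean over its genes of centred log2 CPM, was 2.33 in B1, -0.40 in G2 and 1.47 in H2. Comparison mice had a median of -0.18 and a 75th percentile of 0.78, and their highest, 3.045, was above all 3 CC060 scores. B1 also differed from G2 and H2 in the Y-linked gene Ddx3y, at 87.8, 2.88 and 2.86 CPM in B1, G2 and H2. The part of this difference in the results on B1 was not tested.

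The growth factor genes Fgf4 and Fgf3, which lie side by side on chromosome 7, were high in B1 as well. Fgf4 had 2097, 6 and 4 counts in B1, G2 and H2, which is 85.1, 0.221 and 0.174 CPM, against a comparison highest of 0.812 CPM. Fgf3 had 560, 0 and 2 counts, with 22.7 CPM in B1 against a comparison highest of 0.886 CPM. Both highest comparison values were from mouse KAV-G2, which was also the highest comparison mouse for P2ry1 and Itga8. The nearby cyclin gene Ccnd1 did not single out B1, with 891, 904 and 999 CPM in B1, G2 and H2 against a comparison median of 337 and 75th percentile of 629 CPM (log2 fold change 1.11, edgeR adjusted p = 0.494). Ucp1, the uncoupling protein of brown fat, had 170, 1 and 0 counts in B1, G2 and H2, against a comparison highest of 0.569 CPM where B1 was at 6.90 CPM.

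Few genes set all 3 CC060 tumours apart. All 3 were above every comparison mouse in 6 genes (0.0299%) and below every one in 0. The 6 were the Schlafen gene Slfn9, the natural killer receptor gene Klra6, the olfactory receptor gene Olfr1120, the predicted gene AC122119.2 and the pseudogenes Gm6501 and Nutf2-ps2. All but Olfr1120 were called (edgeR adjusted p = 0.164 for Olfr1120). AC122119.2, Gm6501 and Nutf2-ps2 were the 3 genes still called whichever CC060 mouse was left out. AC122119.2, at chr19:7959743-7961107, was at 44.2, 33.98 and 40.9 CPM in B1, G2 and H2, against a comparison median of 2.47 and highest of 26.2 CPM (log2 fold change 3.39 ± 0.47 SE, edgeR adjusted p = 4.19e-07).

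Slfn9 belongs to the Schlafen family, several of whose members are induced by interferon and restrain the growth of T cells in mice. It was at 171, 137 and 193 CPM in B1, G2 and H2, against a lowest of 11.5, a median of 51.03 and a highest of 136 CPM in comparison mice (log2 fold change 1.54 ± 0.36 SE, edgeR adjusted p = 0.0256). The groups did not overlap, though G2 was next to the highest comparison mouse, and the call was lost without any 1 of the 3 (edgeR adjusted p = 0.265, 0.064 and 0.738 without B1, G2 and H2). Its promoter is shown because interferon-induced genes carry a repeat of GAAA, the core of the interferon response element. The search was for GAAANNGAAA on both strands, which reads TTTCNNTTTC on the other, and the window holds 1 match, in capitals. The window is the RefSeq promoter on GRCm38.p6, chr11:82991781-82992080, minus strand, 250 bases before to 50 after the start.
Slfn9: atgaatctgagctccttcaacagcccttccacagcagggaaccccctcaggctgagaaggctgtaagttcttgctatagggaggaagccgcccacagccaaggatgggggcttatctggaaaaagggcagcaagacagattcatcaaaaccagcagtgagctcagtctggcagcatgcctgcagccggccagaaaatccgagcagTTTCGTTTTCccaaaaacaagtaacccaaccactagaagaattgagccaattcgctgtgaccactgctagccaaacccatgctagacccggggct
The motif was in 3.44% of 32851 RefSeq promoters, and in those of Slfn5, Slfn8 and Slfn9 among 7 Schlafen genes. A match is a description of the letters only.

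The rest of the Schlafen family split by mouse. Of 7 tested Schlafen genes, a family chosen after the values were seen, B1 was above the 75th percentile of comparison mice in 6, H2 in 6 and G2 in 2. Over all genes the shares above it were 24.5% for B1, 24% for G2 and 24.7% for H2. Slfn4 was at 94.8, 10.7 and 85.0 CPM in B1, G2 and H2, against a comparison median of 6.28 CPM, and did not pass (edgeR adjusted p = 0.162). Slfn8 was at 140, 34.2 and 61.9 CPM, against a comparison median of 20.3 CPM (edgeR adjusted p = 0.391). G2 was the lowest of the 3 for Slfn9, Slfn4 and Slfn8. Slfn8 and Slfn9 are similar copies, and reads could be split between them. The HIN-200 family, DNA sensors that interferon also induces, was likewise chosen after the values were seen. Of its 13 tested genes, 11 were above the 75th percentile in B1, 11 in H2 and 0 in G2. The test called 0 of the 13, where it called 0.289% of all genes.

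Genes of the natural killer receptor complex on chromosome 6, a cluster of lectin-like receptors apart from the stretch from Cmas to Bicd1, were higher in CC060 for 2 of 37 tested members, where 0.274% of all genes were called higher. The complex was chosen after the values were seen. Klra6 was at 3.09, 3.28 and 7.59 CPM in B1, G2 and H2, against a comparison median of 0.380 and highest of 3.01 CPM (log2 fold change 3.08 ± 0.67 SE, edgeR adjusted p = 0.00804). Clec1b, the podoplanin receptor of platelets and myeloid cells, was at 34.6, 9.08 and 9.59 CPM, against a comparison median of 0.987 and highest of 25.2 CPM (log2 fold change 3.10 ± 0.66 SE, edgeR adjusted p = 0.00605). Only 3 comparison mice were above the lowest CC060 mouse for Clec1b: TAS-I1, MEE-E2 and MEE-B1. MEE had the highest mean log2 CPM of the comparison strains for both genes. It was at 2.06 for Clec1b against 3.86 in CC060, and at 0.593 for Klra6 against 2.11. The call of Klra6 was lost without H2 (log2 fold change 2.5, edgeR adjusted p = 0.738) and that of Clec1b without B1 (2.17, edgeR adjusted p = 0.7). All 3 CC060 mice were above the 75th percentile in 14 of the 37, where 6.24% of all genes were. Clec1a, next to Clec1b, was at 113, 84.0 and 66.3 CPM and did not pass (edgeR adjusted p = 0.423). The Klra genes are near copies whose number differs among mouse strains, so their split is uncertain.

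Tmem68, Mterf3 and Mier3 were raised by smaller amounts. Tmem68, a membrane acyltransferase, was at 31.3, 29.1 and 40.3 CPM in B1, G2 and H2, against a comparison median of 15.97 and highest of 32.4 CPM (log2 fold change 1.01 ± 0.23 SE, edgeR adjusted p = 0.0141). Mterf3, a regulator of mitochondrial transcription, was at 54.9, 61.1 and 50.3 CPM, against a comparison median of 30.3 CPM (log2 fold change 0.84, edgeR adjusted p = 0.0477). Mier3 was at 50.3, 81.6 and 46.95 CPM, against a comparison median of 31.9 CPM (log2 fold change 0.87, edgeR adjusted p = 0.0448). At most 5 of the 72 comparison mice were above the lowest CC060 mouse for any of the 3 genes. Tmem68 was still called without G2 (edgeR adjusted p = 0.0423) but not without B1 or H2, and Mterf3 and Mier3 were not called with any 1 CC060 mouse left out. Without G2 the log2 fold change of Mier3 was 0.58.

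Rpl3-ps1 and Gm49325 were among the 3 genes called lower. Rpl3-ps1, a processed copy of the ribosomal protein gene Rpl3 at chrX:13202571-13203780, was at 3.25, 9.30 and 6.77 CPM in B1, G2 and H2, against a 25th percentile of 146.7, a median of 222 and a highest of 858 CPM in comparison mice (log2 fold change -5.28 ± 1.29 SE, edgeR adjusted p = 0.0396). Of the comparison mice 6 were below the highest CC060 mouse, 3 of the 4 Boon mice and 3 of the 6 TAS mice. The mean log2 CPM was 2.58 in CC060, against 1.65 in Boon, the 1 strain with a lower mean. The parent Rpl3 was at 643, 674 and 621 CPM in CC060 mice, against a comparison median of 560 CPM (log2 fold change 0.13, edgeR adjusted p = 0.869). The transcripts of pseudogene and parent differ at 2 of 1210 aligned bases, so the pseudogene count rests on reads over those bases and is uncertain. The first 100 bases of the pseudogene, which hold 1 of the 2, and the matching stretch of Rpl3 are shown in the transcript's sense, GRCm38, with the differing base in capitals.
Rpl3-ps1: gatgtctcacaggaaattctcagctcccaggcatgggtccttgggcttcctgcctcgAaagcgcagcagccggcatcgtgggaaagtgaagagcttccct
Rpl3: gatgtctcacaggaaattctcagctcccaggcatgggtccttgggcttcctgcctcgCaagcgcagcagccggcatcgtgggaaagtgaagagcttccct
Gm49325 had 0 counts in all 3 CC060 mice, where 3 counts would be 0.122, 0.111 and 0.130 CPM in B1, G2 and H2, against a comparison median of 1.44 and highest of 11.2 CPM (edgeR adjusted p = 0.017). No gene called lower was still called with any 1 CC060 mouse left out.

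Lum, the gene of the collagen-binding proteoglycan lumican, was higher in all 3 CC060 tumours than in most comparison mice and did not pass the test. It was at 998, 463 and 1410 CPM in B1, G2 and H2, against a lowest of 2.14, a median of 168, a 75th percentile of 401 and a highest of 2592 CPM (log2 fold change 1.74 ± 0.87 SE, edgeR adjusted p = 0.494). CC060 had the highest mean log2 CPM of the 17 strains for Lum, and 14 comparison mice were above its lowest mouse. The strain CIS was close, with a mean of 9.63 against 9.76 in CC060. The proteoglycans Dcn and Bgn were not set apart in the same way, with 1300, 617 and 1603 CPM of Dcn in B1, G2 and H2 against a comparison median of 831 CPM, and 4538, 3314 and 1559 CPM of Bgn against 2917 CPM. Prelp, of the same family, was at 10.4, 13.02 and 12.02 CPM, below the comparison 25th percentile of 24.96 CPM (edgeR adjusted p = 0.494).

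Cdkn2a was near the low end in all 3 tumours and did not pass the test. It was at 0.852, 0.959 and 0.521 CPM in B1, G2 and H2, against a lowest of 0.144, a 25th percentile of 1.59, a median of 4.35 and a highest of 580 CPM (log2 fold change -6.23 ± 2.82 SE, edgeR adjusted p = 0.494). CC060 had the lowest mean of the 17 strains, and 14 comparison mice were below its highest mouse. The strain CC035 was next, with a mean log2 CPM of 0.145 against -0.29 in CC060. DESeq2 on the same counts gave a log2 fold change of -6.25 and did call it (adjusted p = 0.0135). Cdkn2b, the neighbouring p15 inhibitor gene, was high in B1 only, at 18.3, 1.14 and 0.955 CPM against a comparison median of 2.71 CPM. Mtap, a purine salvage enzyme often lost with Cdkn2a in mesothelioma, was at 6.33, 11.6 and 151.6 CPM in B1, G2 and H2, against a comparison median of 23.2 CPM. Thus Mtap was low in B1 and G2 and high in H2, while Cdkn2a was low in all 3.

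**Figure D5:**
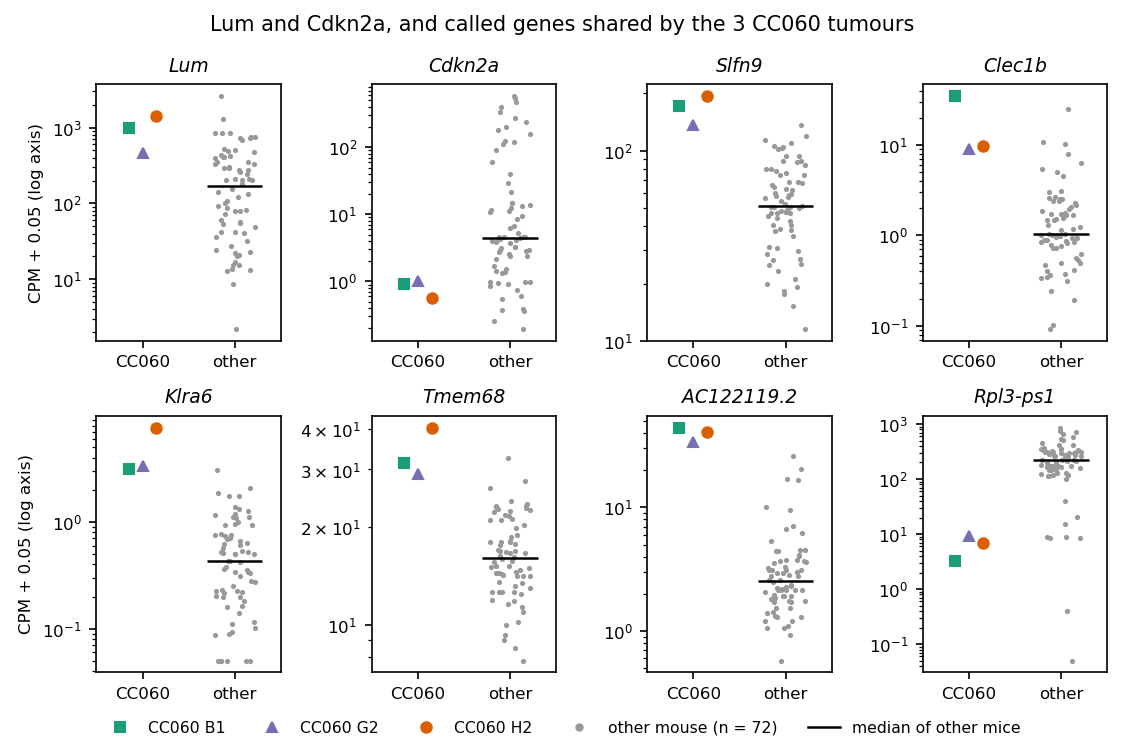
CPM + 0.05 on a log axis for Lum, Cdkn2a and 6 called genes in the 3 CC060 tumours (left) and the 72 comparison mice (right, grey, with their median as a line). The CC060 points lie above every comparison mouse for Slfn9, Klra6 and AC122119.2 and among the lowest for Cdkn2a and Rpl3-ps1.

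In edgeR none of 42 gene lists of mesothelioma biology, stroma, immune cells and other tissues had a member called in either direction, where 0.289% of all genes were called, and the median log2 fold change over all genes was -0.28. Of the 665 list genes tested, DESeq2 called 1 higher and 10 lower, limma-voom 1 and 0, and edgeR with comparison strains weighted equally 6 and 1. The smooth muscle and myofibroblast list had a median log2 fold change of -3.12 over 10 genes. The difference between CC060 and comparison medians of its genes was smaller, at -1.185 on the log2 scale. Its scores were -2.45, -0.96 and -1.12 in B1, G2 and H2, against a median of -0.09 in comparison mice. B1 was below the lowest comparison score of -1.98, G2 was above their 25th percentile of -1.01 and H2 was just below it. The list's gene Acta2, smooth muscle actin, was at 14.1, 49.6 and 46.9 CPM in B1, G2 and H2, against a comparison median of 113 CPM. Tagln was at 6.01, 14.1 and 22.1 CPM against 43.1 CPM (edgeR adjusted p = 0.494 for each). CC060 had the lowest mean of the 17 strains for Acta2, Tagln and Cnn1, and DESeq2 called Cnn1 lower (log2 fold change -4.21, adjusted p = 0.0496). Immediate early genes had scores of -0.65, -0.71 and -0.45 in B1, G2 and H2, against a comparison median of 0.02, and Jund, a member of the AP-1 factor, was at 55.9, 77.7 and 47.3 CPM against 147.8 CPM (log2 fold change -1.49, edgeR adjusted p = 0.272). Jund was called lower by DESeq2 (adjusted p = 0.0401) and in edgeR with strains weighted equally (adjusted p = 0.0223). The mesothelial list had a median log2 fold change of -3.23, though the CC060 median of its genes was only 0.32 below the comparison median on the log2 scale. A few comparison mice were very high in these genes, with up to 1143 CPM of Msln.

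Growth factor genes Hgf and Pdgfa were high in level without passing. Hgf, which binds the Met receptor, was at 166, 163 and 310 CPM in B1, G2 and H2, against a comparison median of 46.4 CPM (log2 fold change 1.57, edgeR adjusted p = 0.494). Pdgfa was at 136, 429 and 29.9 CPM, against a comparison median of 44.3 and highest of 377 CPM (log2 fold change 1.51, edgeR adjusted p = 0.487). For Hgf all 3 CC060 mice were above the 75th percentile of 97.4 CPM, and for Pdgfa only B1 and G2 were above the median. The cell cycle list was close to the comparison mice, with scores of 0.21, 0.73 and 0.52 in B1, G2 and H2 against a median of 0.23 in comparison mice and 0 of 30 genes called. The macrophage and dendritic cell list scored 0.04, 0.52 and -0.67 against 0.01, and the T and cytotoxic cell list 0.40, -0.23 and -0.35 against -0.44, with 0 members called in each.

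Blocks of neighbouring high genes were also seen in comparison mice. In windows of 9 neighbouring genes, 37 of the 72 comparison mice had a window with a median log2 ratio of 2 or more, and the highest window of a comparison mouse had a median of 2.10 and a maximum of 5.81 across mice. The highest window was 5.28 in H2, second of 75 mice. It was 2.35 in G2, at rank 33 of 75, and 1.68 in B1, at rank 49.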

How the data were processed

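RNA was sequenced from whole tumours with a strand-specific mRNA kit, per the labels' protocols. The authors quantified reads with kallisto 0.46.1 on GRCm38, per the submitters' processing notes, which also name DESeq2 and DESeq. The deposited table holds estimated counts per gene, given as whole numbers with no normalization. No source used here gives the settings of kallisto or the runs of the libraries. A second deposited table repeats the same counts for 22049 of 36118 genes and was not used.

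Counts were summed per mouse, filtered with filterByExpr, scaled by TMM and tested in edgeR 4.0.16 (R 4.3.3, quasi-likelihood F-test, two-sided) as CC060 against all comparison mice. The threshold was a Benjamini-Hochberg adjusted p of 0.05 over 20080 genes. Fold changes are log2 of CC060 over comparison mice. CPM use the TMM-scaled library size, except those of the single tumours of CC044-D3, which use the plain library total. The median biological coefficient of variation was 64.3%. Log2 CPM used a prior count of 2. Nothing in the labels says more of how replicate mice were raised, and p-values measure the spread between these mice. Mice of CC060 are all above median survival, so strain and survival class cannot be told apart within CC060, and the sex of no mouse is given.

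Up to 12 genes a direction were named, in order of p, from called genes with a log2 fold change of 1 or more in size, a mean of 5 CPM or more and all 3 CC060 mice beyond the 75th (or 25th) percentile of comparison mice, leaving out predicted genes and pseudogenes. This gave 12 of 13 higher and 0 lower, besides Lum and Cdkn2a. Slfn9 was the 13th. Other genes were named after their values were seen. Some genes are not reported here. The members and lists were chosen with earlier results of these data known. Of the comparison strains, 6 libraries whose strain was in doubt were left out, and 2 columns of the table could not be joined to 1 sample. Symbols were found for 35825 genes, positions are from GENCODE M21 (GRCm38) and promoters from RefSeq (GRCm38.p6). On simulated counts of 19724 genes the test called 15 of 67 genes changed by 1 on the log2 scale, 44 of 67 changed by 2 and 58 of 66 changed by 4, with 8 unchanged genes called. Floors of 3 counts allow for counting error and nothing else, as there were no molecular identifiers. Alternatives were DESeq2 1.42.0, limma-voom (limma 3.58.1), other scaling, no filter, other sets of comparison mice and tumours, and leaving out each CC060 mouse. Leaving out CC044-D3 was added after the data were seen.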

Additional observations from a re-analysis of the deposited data

How the results depend on the processing

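The 55 higher and 3 lower calls became 27 and 97 with DESeq2, which gave no adjusted p to 28 of the 58 genes and called 23 of them, 1 of these in the chromosome 6 stretch. They became 77 and 1 with limma-voom, with 13 in the stretch and 33 higher calls shared, and 119 and 4 without the filter on low counts. Strain as a factor, with the 16 comparison strains weighted equally, gave 278 and 24, among them all 58. The error of that fit is the spread within strains, while that of the main fit also holds the spread between strains. Against CC035 and KAV only there were 17 and 5, of which 3 and 1 were shared. Leaving out each CC060 mouse gave 24 to 58 higher and 0 lower, and 42, 43 and 15 of the 58 calls were kept without B1, G2 and H2. The lower count was also 0 with the lowest-numbered tumour of each mouse and 1 without libraries over 1% other tissue. RLE scaling, comparison mice above median survival only (42 and 2), the 6 libraries kept (56 and 3) and leaving out CC044-D3 (57 and 2) stayed within 1.5 times of both counts. Leaving out 1 CC060 mouse in turn gave log2 fold changes of -1.09 (without B1) to 4.06 for Itga8, -0.51 (without H2) to 5.69 for Pthlh and -2.76 (without H2) to 4.28 for Bcat1. The cause of the other differences between settings was not tested. No paired analysis was possible because the labels give CC060 and comparison mice no shared replicate numbers. With 3 CC060 mice the simulated test called 15 of 67 changes of 1 on the log2 scale, so changes of that size were mostly not detectable.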
